A study of Mus musculus with 8 samples.

Results

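The genes described here are 36 members of the cellular defence against oxidants. They cover the transcription factor NRF2 and its inhibitor KEAP1, enzymes that make and recycle glutathione, the thioredoxin system and genes of NADPH supply. Peroxidases, superoxide dismutases, glutathione transferases and enzymes that act on quinones and heme are also among them. The members were taken by symbol from a list, and all 36 of them were found among the 55357 genes of the count table. The libraries came from bone marrow-derived macrophages (BMDM) of C57BL/6J wild-type mice, grown from marrow of the femur and tibia in medium with macrophage colony-stimulating factor (M-CSF). The control group (4 libraries) received the methanol vehicle for 6 h, and the So(d18:1) group (4 libraries) received 2 μM So(d18:1), the sphingosine with an 18-carbon chain and 1 double bond, in methanol for 6 h. The labels give no age. The study calls the samples biologically independent, without saying whether that means separate mice or separate cultures, and p-values measure the spread between these libraries. The labels name no inflammatory stimulus, whereas the text of the study places such cells under one. The question was which genes of this defence differed between macrophages given So(d18:1) and macrophages given vehicle.

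NRF2, encoded by Nfe2l2, is held in the cytoplasm by KEAP1 and degraded until oxidants or electrophiles modify cysteines of KEAP1. Freed NRF2 enters the nucleus, pairs with small MAF proteins and binds the antioxidant response element of its target genes, which include many of the members. Macrophages make superoxide and peroxide on purpose with the NADPH oxidase, and glutathione and thioredoxin, both kept reduced with NADPH, are what limits the damage to the cell itself.

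Levels are given as CPM, counts set to a common library total after TMM scaling, which corrects for the composition of each library. The libraries held between 20819860 and 25114354 counts in control and between 17748397 and 26088609 with So(d18:1), and the members took 0.654% to 0.724% of the counts in control and 0.706% to 0.758% with So(d18:1). Markers fixed as lists showed macrophages in both groups, with summed levels of 10 markers (Adgre1 and Csf1r among them) of 31420 to 33810 CPM in control and 27250 to 32180 CPM with So(d18:1). By the test described below, Mertk (log2 fold change -0.38, adjusted p = 6.2e-06, edgeR) and Cd68 (-0.22, adjusted p = 0.00349) among these 10 fell and Itgam rose (0.18, adjusted p = 0.0119). The 10 neutrophil markers, none of them at 0, summed to 1700 to 2345 CPM in control and 1339 to 1519 CPM with So(d18:1), and 5 of them passed the same test, all lower with So(d18:1). In control this sum was higher in replicates 3 and 4 (2345 and 2096 CPM) than in replicates 1 and 2 (1741 and 1700 CPM). The sums of dendritic cell, mast cell and basophil, lymphocyte and stromal markers stayed under 15 CPM in each library, and 1 lymphocyte marker among them, Nkg7, fell (log2 fold change -0.83, adjusted p = 0.0426, edgeR). Of the 8 erythroid markers only Tfrc, the transferrin receptor, which dividing cells of other types also carry, was counted often enough to be tested, and it fell from 174 to 142 CPM with no overlap (log2 fold change -0.30, adjusted p = 0.00295, edgeR). In RNA from whole cultures, fewer cells of a type and less RNA per cell cannot be told apart. The part of these markers in the results was not tested.

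The members spanned a wide range of levels in these macrophages. Levels were set per kilobase of the gene length deposited with the counts, for example 3043 bases for Prdx1, 3970 for Sod1 and 10008 for Sod2. This length was not set against the main transcript of each gene. Where it is the longer, the level is understated, so the order between genes is approximate. By this measure the highest mean levels in control were those of Prdx1 (223 ± 14.9 CPM per kb, SD, n = 4) and Hmox1 (207 ± 47.0). Next came Gpx1 (185 ± 6.93), Taldo1 (177 ± 10.6), Prdx5 (148 ± 10.0), Pgd (143 ± 7.48), Cat (133 ± 6.18) and Txn1 (129 ± 7.33). Neighbours such as Prdx1 and Hmox1, Gpx1 and Taldo1, Prdx5 and Pgd, and Cat and Txn1 lay no further apart than the larger SD of the pair. Taldo1 and Prdx5 were further apart than either SD. At the low end stood Gss (2.14 ± 0.139 CPM per kb), Nqo1 (1.35 ± 0.283), Me1 (0.751 ± 0.205) and Slc7a11 (0.259 ± 0.0576). Gsta4, a transferase for lipid aldehydes, had 0 to 3 counts per library and could not be tested, which left 35 members. The gene for NRF2 itself was well expressed at 95.1 ± 2.82 CPM per kb and that for KEAP1 lower, at 9.49 ± 0.503. Besides the genes pointed out below, Me1 (28.3%), G6pdx (16.9%), Prdx5 (15.5%) and Prdx2 (12%) shared over 10% of the 50-base words of their transcripts with other genes, so their counts are uncertain by such reads.

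**Figure D1:**
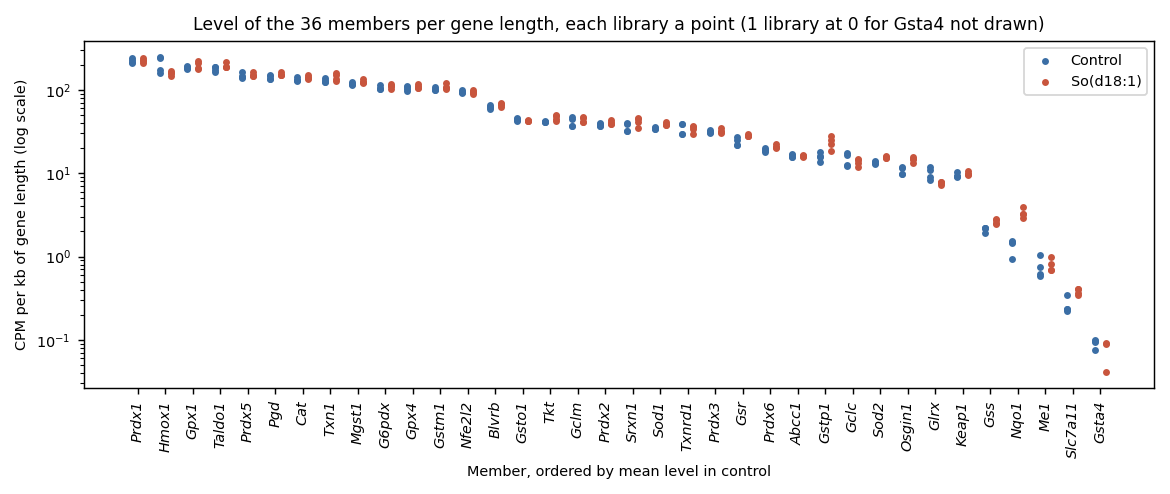
Level of each of the 36 members in CPM per kb of gene length (log axis), with members ordered by their mean in control and each point 1 library, control in blue and So(d18:1) in orange. From Prdx1 at the left to Slc7a11 near the right the control means run from 223 to 0.259 CPM per kb, and Nqo1 has the clearest gap between the colours.

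With So(d18:1), 9 members rose and 1 fell at an adjusted p under 0.05. Nqo1, Gstp1, Slc7a11, Osgin1, Gss, Gsr, Sod2, Sod1 and Tkt rose, by 1.12-fold for Tkt to 2.45-fold for Nqo1, and Glrx fell to 0.763 of its control level. Nfe2l2 and Keap1 did not pass, nor did the NRF2 targets Gclc, Gclm, Txnrd1, Srxn1 and Hmox1. Each gene was tested with edgeR's quasi-likelihood test, with Benjamini-Hochberg adjustment over all 14514 genes with enough counts. SE stands for the standard error of a log2 fold change. Of all tested genes 8.94% passed (3.87% higher and 5.07% lower), against 10 of the 35 members (28.6%, of which 25.7% higher and 2.86% lower). The median log2 fold change of the members was 0.094, with 28 of 35 above 0, beside a median of 0.0036 over all tested genes, of which 50.9% were above 0. By the threshold in the study's methods, a fold change of at least 1.5 with an unadjusted p under 0.05, 1 member (Nqo1) passed, where 3.89% of all tested genes did. The groups did not overlap in 10 members (9 higher, 1 lower), where 15% of all tested genes had no overlap (7.14% higher, 7.87% lower). Most of these changes were small, and only 3 rises exceeded 0.5 on the log2 scale.

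**Figure D2:**
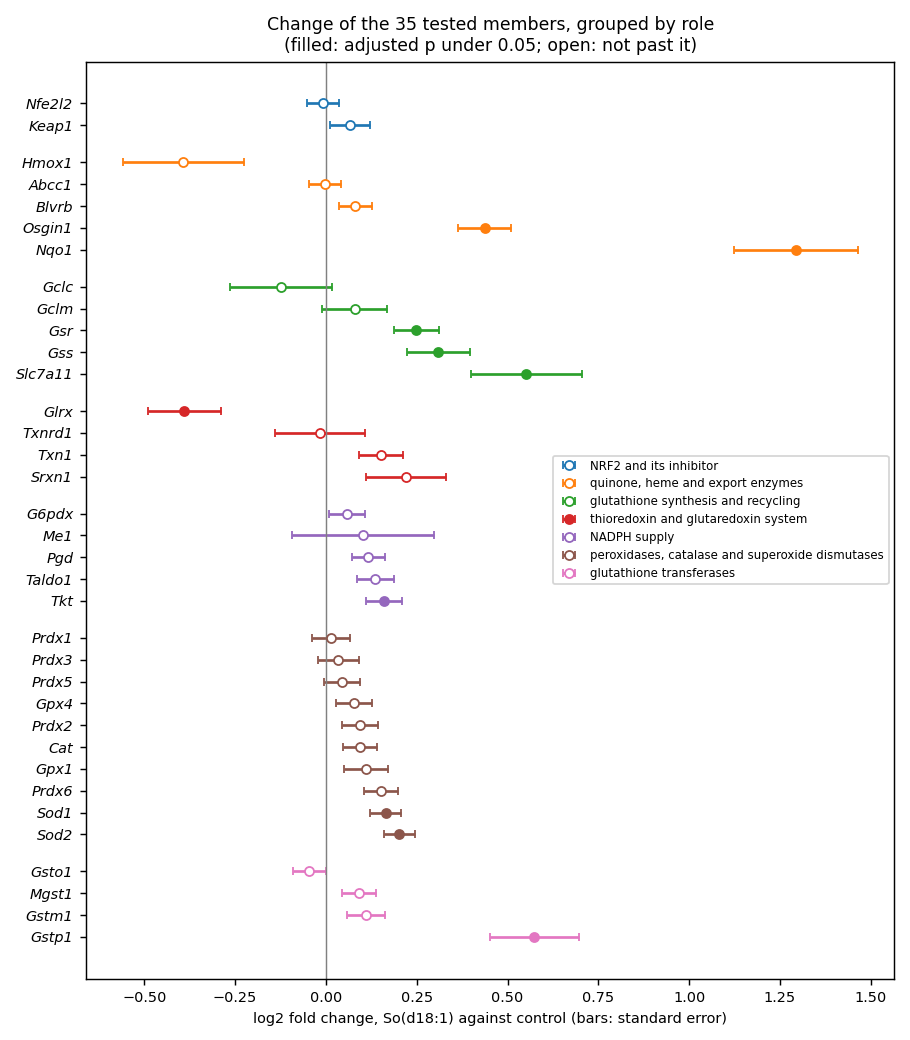
Log2 fold change of each tested member, So(d18:1) against control, with bars of 1 SE, coloured and grouped by role, with filled points for an adjusted p under 0.05. Nqo1 stands at 1.29, most others lie between 0 and 0.25, and Glrx and Hmox1 lie lowest, near -0.39.

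The count of called members depended on single libraries. Leaving out So(d18:1) replicate 4 left 4 called members (Nqo1, Osgin1, Sod2 and Gstp1). Leaving out control replicate 2 or control replicate 4 left 6 each. Over all tested genes, 1298 of 14514 passed with all 8 libraries and 901 of 14677 without So(d18:1) replicate 4. The count over all genes was 1370 of 14627 without control replicate 2 and 872 of 14638 without control replicate 4. Nqo1, Osgin1 and Sod2 were called in all 8 fits with a library left out, Gstp1 and Gsr in 7, Sod1 in 5, Gss in 4, Slc7a11 and Glrx in 3 and Tkt in 1. So(d18:1) replicate 4 was the highest of its group in 24 of 35 members, where it was the highest in 26.9% of all tested genes.

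**Figure D3:**
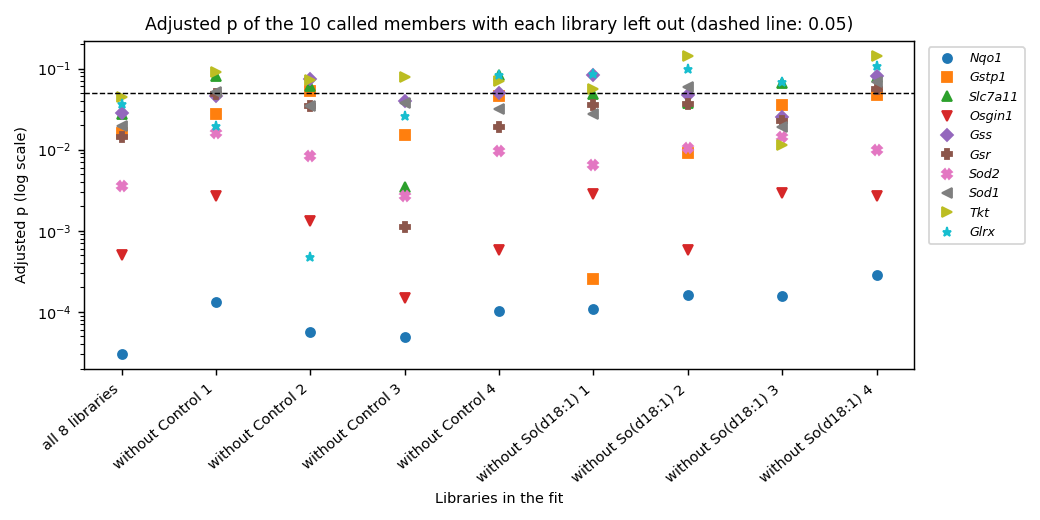
Adjusted p (log axis) of the 10 called members with all 8 libraries and with each library left out, 1 symbol per gene, with the dashed line at 0.05. The points of Nqo1, Osgin1 and Sod2 stay under the line throughout, while Tkt is above it in 7 of the 8 fits.

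The short stretch before a gene's start was searched for the letters of the antioxidant response element, TGACNNNGC, and of the AP-1 motif, TGANTCA, which can overlap it, on both strands. RefSeq promoters (GRCm38.p6, from 250 bases before to 50 bases after a start) were at hand for 30 members, without Hmox1, Abcc1, Gclc, Gsr, Prdx6 and Gsta4. TGACNNNGC occurred in 10 of these 30, as against 14% of 27025 genes and 12.4% of 32851 promoters, and TGANTCA in 6 of 30, as against 8.97% of genes and 7.81% of promoters. Among the called members with a promoter at hand, all but Gsr, Sod1 held the first motif in this window and Osgin1, Glrx and Gstp1 the second. Sequence further from the start was not searched, so a gene without a match here may hold one elsewhere. The sites of these 4 genes are printed because their levels changed, and 1 site each of Gclm, Txnrd1, Prdx1 and Srxn1, chosen after their values were seen, because these genes held a motif and were not called. Each sequence reads 5′ to 3′ along the gene with the match in capitals, and the other bases are its flanks. Those of Sod1 (chr16:90220696-90220724, plus strand), Gclm (chr3:122245413-122245441, plus), Txnrd1 (chr10:82859104-82859132, plus) and Prdx1 (chr4:116685456-116685484, plus) hold TGACNNNGC as its reverse complement, and in Prdx1 it overlaps TGANTCA. Those of Osgin1 (chr8:119437040-119437066, plus strand), Glrx (chr13:75839777-75839803, plus), Gstp1 (chr19:4037970-4037996, minus) and Srxn1 (chr2:152105469-152105495, plus) hold TGANTCA.
Sod1: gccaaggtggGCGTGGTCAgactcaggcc
Gclm: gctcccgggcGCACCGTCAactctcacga
Txnrd1: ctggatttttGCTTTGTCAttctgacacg
Prdx1: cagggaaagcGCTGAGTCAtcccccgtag
Osgin1: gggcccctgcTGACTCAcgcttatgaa
Glrx: taggaagtacTGACTCAtaccaaaatg
Gstp1: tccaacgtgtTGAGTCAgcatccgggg
Srxn1: aaattcacccTGAGTCAgcggccgggc
The matches lay 56 bases before the start in Sod1, 134 in Gclm, 92 in Txnrd1, 133 in Prdx1, 97 in Osgin1, 98 in Glrx, 74 in Gstp1 and 45 in Srxn1. Srxn1 held further matches that are not printed, TGACNNNGC as its reverse complement 28 bases after the start and TGANTCA 102 bases before it, and Prdx1 another TGANTCA 237 bases before its start. A match of letters is a description and not evidence that NRF2 or AP-1 was bound.

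The 2 genes at the head of the pathway did not pass the test. Nfe2l2 was at 354, 353, 376 and 360.5 CPM in control replicates 1 to 4 and at 361, 338, 355 and 381 CPM in So(d18:1) replicates 1 to 4. The groups overlapped (log2 fold change -0.0078, SE 0.044, adjusted p = 0.942). Nfe2l2 (chr2:75675513-75704641 in GRCm38, the build called mm10) encodes NRF2, whose amount is set mostly by degradation of the protein, which RNA counts do not show. Keap1 was at 42.8, 44.1, 48.0 and 43.3 CPM in control replicates 1 to 4 and at 49.6, 46.0, 46.6 and 44.7 CPM in So(d18:1) replicates 1 to 4. Its groups overlapped too (log2 fold change 0.066, SE 0.056, adjusted p = 0.525). An exon of Keap1 overlaps Gm16754 on the opposite strand, and the strand setting of the counting was not given, so reads of both cannot be told apart. Of 14 other regulators of the pathway, all tested, 1 passed: Bach2, a repressor that competes with NRF2 for its sites, fell from 19.1 ± 1.07 to 15.0 ± 1.58 CPM (SD, n = 4 each) (log2 fold change -0.35, SE 0.086, adjusted p = 0.0117). Its relative Bach1 had a log2 fold change of 0.086 (adjusted p = 0.241), Sqstm1, whose product p62 draws KEAP1 into autophagy, had 0.086 (adjusted p = 0.282), and the small MAF gene Mafg had -0.0028 (adjusted p = 0.981), by edgeR's quasi-likelihood test. Of the 50-base words of Sqstm1, 15.5% occur in Mrnip, whose exons overlap it on the opposite strand.

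Nqo1, the 2-electron reductase of quinones and a textbook NRF2 target that the aryl hydrocarbon receptor also induces, changed more than any other member. Nqo1 was at 1.44, 2.31, 2.23 and 2.39 CPM in control replicates 1 to 4 and at 4.49, 4.98, 5.10 and 6.05 CPM in So(d18:1) replicates 1 to 4. Each So(d18:1) library stood above each control library, and control replicate 1 was the lowest of its group. The rise was 2.45-fold (log2 fold change 1.29, SE 0.17, adjusted p = 3.01e-05, edgeR), on 30 to 156 counts per library, and at 3.32 CPM per kb with So(d18:1) Nqo1 (chr8:107388225-107403206) was still the fifth lowest of the 36 members. Osgin1, an oxidative stress-induced growth inhibitor gene (chr8:119434124-119446256), rose too. Osgin1 was at 26.2, 26.2, 31.6 and 31.3 CPM in control replicates 1 to 4 and at 39.2, 35.5, 41.8 and 39.6 CPM in So(d18:1) replicates 1 to 4. The groups did not overlap (log2 fold change 0.44, SE 0.073, adjusted p = 0.000498).

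The members of heme breakdown and conjugate export did not pass the test. Hmox1, which opens the heme ring to biliverdin, iron and carbon monoxide, was uneven among the controls. Hmox1 was at 302, 282, 440.2 and 426 CPM in control replicates 1 to 4 and at 276, 256, 275 and 297 CPM in So(d18:1) replicates 1 to 4. Control replicates 3 and 4 were far above control replicates 1 and 2, and the groups overlapped, since So(d18:1) replicate 4 was above control replicate 2. The log2 fold change of -0.39 (SE 0.17) did not pass (adjusted p = 0.224, edgeR), and it ranged from -0.49 to -0.28 with a library left out. Blvrb, a biliverdin and flavin reductase, had a log2 fold change of 0.081 (adjusted p = 0.302), and Abcc1, which exports glutathione conjugates, had -0.0031 (adjusted p = 0.978). Of 6 heme genes outside the members, 5 were tested, all 5 had a negative log2 fold change and 1 passed: Blvra, the main biliverdin reductase, fell from 78.8 ± 1.77 to 65.8 ± 3.29 CPM (SD, n = 4 each) (log2 fold change -0.26, SE 0.048, adjusted p = 0.00144).

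In glutathione synthesis, the cystine importer, the second synthesis step and the recycling enzyme rose, and the rate-limiting step did not pass. Slc7a11 (chr3:49892526-50443614) encodes the light chain of the cystine-glutamate exchanger, which brings in the cysteine for glutathione. Slc7a11 was at 3.08, 3.26, 4.81 and 3.30 CPM in control replicates 1 to 4 and at 5.10, 4.75, 5.73 and 5.63 CPM in So(d18:1) replicates 1 to 4. The groups overlapped through control replicate 3, which was above So(d18:1) replicate 2 (log2 fold change 0.55, SE 0.15, adjusted p = 0.0278). The call rested on 64 to 145 counts per library and was lost in 5 of the 8 fits with a library left out, up to an adjusted p of 0.0834 without control replicate 4. Its partner Slc3a2, the heavy chain that it shares with other amino acid transporters, fell from 189 ± 17.2 to 162 ± 5.83 CPM (SD, n = 4 each) (log2 fold change -0.22, SE 0.055, adjusted p = 0.0147).

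Glutamate-cysteine ligase, which sets the rate of glutathione synthesis, is made of a catalytic and a modifier subunit. Gclc was at 46.8, 46.1, 62.7 and 66.2 CPM in control replicates 1 to 4 and at 53.8, 44.6, 55.6 and 50.1 CPM in So(d18:1) replicates 1 to 4. For this catalytic subunit the groups overlapped (log2 fold change -0.12, SE 0.14, adjusted p = 0.666). Gclm was at 231, 234, 284 and 295 CPM in control replicates 1 to 4 and at 261, 256, 286 and 299 CPM in So(d18:1) replicates 1 to 4. The modifier subunit overlapped as well (log2 fold change 0.079, SE 0.089, adjusted p = 0.656). In both genes control replicates 3 and 4 were above control replicates 1 and 2. With a library left out the log2 fold change of Gclc ranged from -0.20 to -0.025 and that of Gclm from 0.027 to 0.14.

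Gss, glutathione synthetase, adds the last amino acid of glutathione (chr2:155563181-155592810). Gss was at 13.0, 11.4, 13.1 and 13.1 CPM in control replicates 1 to 4 and at 16.8, 15.0, 14.5 and 16.3 CPM in So(d18:1) replicates 1 to 4. The groups did not overlap (log2 fold change 0.31, SE 0.086, adjusted p = 0.0284), and the call was lost in 4 of the 8 fits with a library left out, up to an adjusted p of 0.0840 without So(d18:1) replicate 1. Exons of Gss overlap Acss2, Gssos1 and Gssos2 on the opposite strand, and 10.3% of its 50-base words occur in other genes. Acss2, an acetyl-CoA synthetase, itself had a log2 fold change of 0.37 (SE 0.096, adjusted p = 0.0192, edgeR), from 10.4 to 13.4 CPM, so the rise of Gss is uncertain by the reads these genes may share. Gsr, glutathione reductase, returns oxidised glutathione to its reduced form with NADPH (chr8:33652523-33698163). Gsr was at 59.6, 60.9, 74.1 and 69.4 CPM in control replicates 1 to 4 and at 77.6, 77.4, 76.3 and 82.4 CPM in So(d18:1) replicates 1 to 4. The lowest So(d18:1) library was above the highest control library (log2 fold change 0.25, SE 0.062, adjusted p = 0.0145), and the adjusted p reached 0.0562 without So(d18:1) replicate 4. Of 17 other genes of glutathione synthesis and turnover, 11 were tested and 2 passed, both lower: Slc3a2, above, and Ggt5, a gamma-glutamyl transferase of the cell surface (log2 fold change -0.29, adjusted p = 0.0373).

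Of the 4 thioredoxin and glutaredoxin genes 1 fell and the others did not pass. Thioredoxin reductase 1, encoded by Txnrd1, is a selenoprotein and a standard NRF2 target. Txnrd1 was at 212, 207, 278 and 277 CPM in control replicates 1 to 4 and at 240.0, 211, 261 and 251 CPM in So(d18:1) replicates 1 to 4. The So(d18:1) range lay within the control range (log2 fold change -0.016, SE 0.12, adjusted p = 0.961). Srxn1, sulfiredoxin, repairs over-oxidised peroxiredoxins. Srxn1 was at 90.0, 90.9, 112 and 111 CPM in control replicates 1 to 4 and at 117, 98.2, 126 and 129.8 CPM in So(d18:1) replicates 1 to 4. So(d18:1) replicate 2 lay within the control range (log2 fold change 0.22, SE 0.11, adjusted p = 0.279), and without that library the adjusted p was 0.0481 and the log2 fold change 0.30. Srxn1 also passed under 2 of the 9 other settings of scaling, filter, block or test. Txn1, thioredoxin itself, had a log2 fold change of 0.15 (adjusted p = 0.138) and passed under 1 of those 9 settings. Glrx, a glutaredoxin that removes glutathione from proteins (chr13:75839868-75850154), was the single member that fell. Glrx was at 49.2, 45.8, 65.0 and 60.7 CPM in control replicates 1 to 4 and at 41.7, 40.1, 43.3 and 43.3 CPM in So(d18:1) replicates 1 to 4. The So(d18:1) libraries lay close together and below each control library, while control replicates 3 and 4 were above replicates 1 and 2 (log2 fold change -0.39, SE 0.10, adjusted p = 0.0367). The call was lost in 5 of the 8 fits with a library left out, up to an adjusted p of 0.107 without So(d18:1) replicate 4, and the log2 fold change stayed between -0.47 and -0.30. Of 20 other genes of thioredoxins, glutaredoxins and oxidised-protein repair, 2 rose and 1 fell. Txndc12, an endoplasmic reticulum thioredoxin, rose with 0.22 (adjusted p = 0.0207), Msrb3, a methionine sulfoxide reductase, rose with 1.22 (adjusted p = 0.041) on 3 to 23 counts per library, and Oxr1, an oxidation resistance gene, fell by 0.19 on the log2 scale (adjusted p = 0.00919), by edgeR's quasi-likelihood test.

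**Figure D4:**
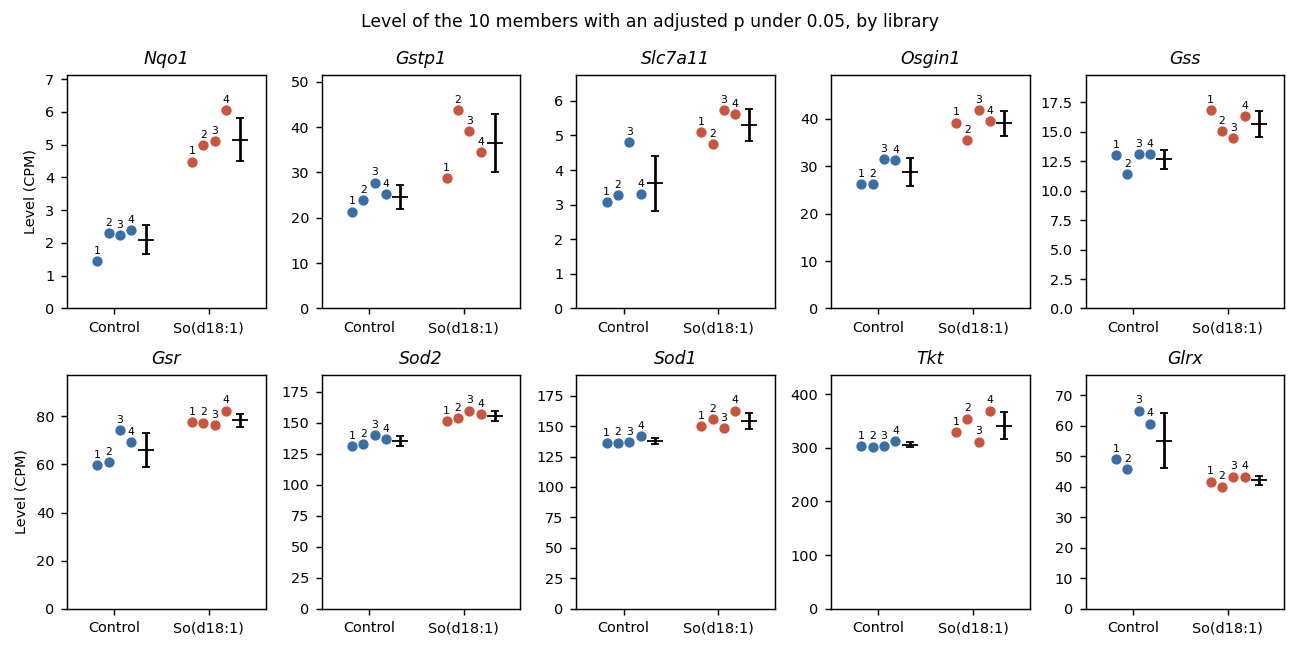
Level in CPM (axes start at 0) of the 10 called members in each library, with points numbered by replicate, control in blue and So(d18:1) in orange, and black bars for mean ± SD of 4 libraries. The groups do not overlap in Nqo1, Gstp1, Osgin1, Gss, Gsr, Sod2, Sod1 and Glrx, and they overlap in Slc7a11 and Tkt.

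The 5 genes listed under NADPH supply include Tkt and Taldo1, whose reactions do not themselves make NADPH. All 5 had a positive log2 fold change, between 0.058 for G6pdx and 0.16 for Tkt, and 1 passed. The log2 fold change of Me1 turned negative in some fits with a library left out. Tkt, transketolase of the non-oxidative pentose phosphate pathway (chr14:30548359-30574720), was at 304, 302, 304 and 313 CPM in control replicates 1 to 4. It was at 329.8, 355, 311 and 369 CPM in So(d18:1) replicates 1 to 4, of which replicate 3 lay within the control range (log2 fold change 0.16, SE 0.049, adjusted p = 0.044). The call was lost in 7 of the 8 fits with a library left out (adjusted p up to 0.144 without So(d18:1) replicate 2) and under 2 of the 9 other settings, upper quartile scaling (0.0653) and at least 10 counts in every library (0.0515). Taldo1, transaldolase, did not overlap between the groups, at 357.8 to 405 CPM in control and 407 to 463 CPM with So(d18:1), yet did not pass (log2 fold change 0.14, SE 0.051, adjusted p = 0.106). It passed with no filter on low counts (adjusted p = 0.0375, edgeR) and with the replicate block (0.0482), and not under the 7 other settings of scaling, filter or test. The oxidative enzymes that make NADPH, G6pdx (glucose-6-phosphate dehydrogenase) and Pgd (6-phosphogluconate dehydrogenase), had adjusted p of 0.517 and 0.121, and Me1, malic enzyme, had 0.811 on 48 to 98 counts per library. Of 15 other NADPH genes, 13 were tested and 2 rose. Idh1, the cytosolic isocitrate dehydrogenase, rose from 559 ± 12.6 to 661 ± 31.7 CPM (SD, n = 4 each) (log2 fold change 0.24, SE 0.043, adjusted p = 0.00096), and Aldh1l1, a folate enzyme that yields NADPH, rose with 0.29 (adjusted p = 0.0343).

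Among peroxidases and dismutases, both intracellular superoxide dismutases rose. Sod2, the mitochondrial manganese enzyme (chr17:13006846-13040063), was at 131, 132, 140.0 and 137 CPM in control replicates 1 to 4 and at 151, 154, 159.8 and 157 CPM in So(d18:1) replicates 1 to 4. The groups were apart and tight (log2 fold change 0.20, SE 0.042, adjusted p = 0.00351), a rise of 1.15-fold, although 21% of the 50-base words of Sod2 occur in other genes, mostly AC166110.4. Sod1, the copper and zinc enzyme of the cytosol (chr16:90220754-90226329), was at 136, 136, 137 and 142 CPM in control and 149.7, 156, 148 and 163 CPM with So(d18:1). The groups did not overlap either (log2 fold change 0.16, SE 0.043, adjusted p = 0.0195), and the call was lost in 3 of the 8 fits with a library left out (adjusted p up to 0.0680 without So(d18:1) replicate 4). The 8 other genes of this role had a positive log2 fold change, although those of Prdx1 and Prdx3 turned negative in some fits with a library left out, and none of the 8 passed by edgeR's quasi-likelihood test. Prdx6, the peroxiredoxin that acts on phospholipid peroxides, came nearest: 85.3, 91.4, 95.4 and 91.3 CPM in control and 97.2, 100.4, 99.0 and 107 CPM with So(d18:1), with no overlap (log2 fold change 0.15, SE 0.047, adjusted p = 0.0505). It passed under 5 of the 9 other settings of scaling, filter, block or test, with an adjusted p from 0.0345 with the replicate block to 0.0697 with upper quartile scaling, and in 1 of the 8 fits with a library left out, while the other 7 passed under none of them. The others were Prdx1 (0.013), Prdx3 (0.034) and Prdx5 (0.045), Gpx4 (0.077), which reduces lipid peroxides in membranes, Prdx2 (0.093), Cat (0.094), the catalase of peroxisomes, and Gpx1 (0.11), the main cytosolic glutathione peroxidase. Pseudogenes limit the count of Gpx4, of whose words 34.7% occur in Gpx4-ps2, and exons of Prdx2 overlap Junb and Rnaseh2a on the opposite strand. At an unadjusted p under 0.05, 3 of the 10 genes passed (Prdx6, Sod1 and Sod2), where 23.4% of all tested genes did. Of 7 further peroxidase and dismutase genes 4 were tested, and the secreted peroxidase Gpx3 fell from 131 ± 2.92 to 113 ± 3.07 CPM (SD, n = 4 each) (log2 fold change -0.21, SE 0.042, adjusted p = 0.00277).

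Of the glutathione transferases, Gstp1 rose. The pi-class enzyme Gstp1 (chr19:4035407-4037985) was at 21.4, 24.0, 27.7 and 25.1 CPM in control replicates 1 to 4 and at 28.8, 43.7, 39.1 and 34.5 CPM in So(d18:1) replicates 1 to 4. The lowest So(d18:1) library, replicate 1, was just above the highest control library, replicate 3, and the spread was wide (log2 fold change 0.57, SE 0.12, adjusted p = 0.016). The log2 fold change ranged from 0.48 to 0.67 with a library left out, and the adjusted p reached 0.0532 without control replicate 2. The neighbouring copy Gstp2 shares 33.7% of the words of Gstp1 and had too few counts to be tested, so reads may be split between the copies. Mgst1, the microsomal transferase, had a log2 fold change of 0.090 (adjusted p = 0.245), Gstm1 0.11 (adjusted p = 0.202), with 18.9% of its words in other genes, and Gsto1, the omega-class enzyme, -0.046 (adjusted p = 0.589). Of 20 further transferase genes 14 were tested, the lowest adjusted p by edgeR was 0.111, and 3 had an unadjusted p under 0.05.

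The control libraries stood in a recurring order in this set of genes. Control replicates 3 and 4 were both above control replicates 1 and 2 in 25 of the 35 tested members and both below them in 2, while among all tested genes these orders held in 25.8% and 25.7%. Hmox1, Gclc, Txnrd1, Glrx, Gclm, Srxn1, Gsr and Osgin1 were among the 25. The median coefficient of variation of the members was 5.67% over the control libraries and 6.03% over the So(d18:1) libraries. Over all tested genes it was 8.09% and 7.87%. The coefficient was larger in control in 20 of 35 members and in 7050 of all 14514 tested genes. For 5 members of this order, chosen after their values were seen, it was larger in control, with 22.7% for Hmox1, 19% for Gclc, 16.6% for Glrx, 16.1% for Txnrd1 and 12.8% for Gclm. In the So(d18:1) libraries it was 6.05%, 9.54%, 3.7%, 8.87% and 7.37% for the same genes. The labels give no batch that would set these libraries apart. The neutrophil marker sum, given above, was also higher in control replicates 3 and 4, and its part in this order was not tested.

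**Figure D5:**
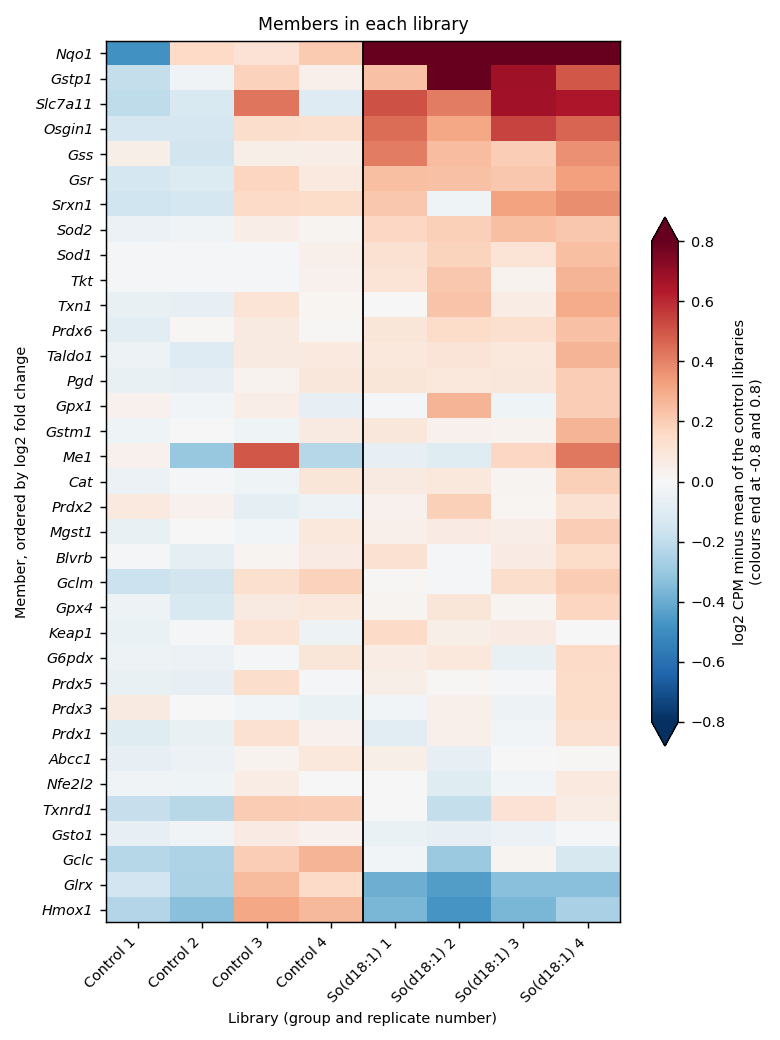
Log2 CPM of each tested member in each library minus the mean of the 4 control libraries, red above and blue below, with colours ending at -0.8 and 0.8 and members ordered by log2 fold change. Among control libraries, replicates 3 and 4 are redder than replicates 1 and 2 in 25 members, and the So(d18:1) columns are red at the top (Nqo1, Gstp1, Slc7a11) and blue at the bottom (Glrx, Hmox1).

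Other genes of the pathway outside the 36 members were counted on lists fixed by role. Over all 10 lists, 117 of 142 genes were tested, 9 rose and 7 fell (7.69% and 5.98%, beside 3.87% and 5.07% of all tested genes), and their median log2 fold change was 0.050. Among 17 tested NRF2 targets, 3 passed, all higher: Esd, an esterase that acts in the glutathione-dependent removal of formaldehyde (from 205 ± 16.7 to 244 ± 11.1 CPM (SD, n = 4 each), log2 fold change 0.25, SE 0.053, adjusted p = 0.00487), Abcc4, an exporter of conjugates and cyclic nucleotides (log2 fold change 0.25, adjusted p = 0.0136), and Fth1, the ferritin heavy chain (from 6555 ± 637 to 7585 ± 422 CPM (SD, n = 4 each), log2 fold change 0.21, SE 0.061, adjusted p = 0.0402). Ftl1, the ferritin light chain, had 0.071 (adjusted p = 0.453, edgeR). Its count is uncertain, since 58.4% of its 50-base words occur in other genes, mostly Ftl1-ps1. Among 12 selenoprotein genes, Selenop, which carries selenium in plasma, fell from 4499.7 ± 72.7 to 3742 ± 157 CPM (SD, n = 4 each) (log2 fold change -0.27, SE 0.043, adjusted p = 0.000319, edgeR). Of the 50-base words of Selenop, 13.5% occur in Ccdc152, whose exons overlap it on the opposite strand. For the NADPH oxidase, the enzyme that makes the superoxide, the cytosolic subunit gene Ncf4, encoding p40phox, rose. It was at 209.8, 224, 229 and 226 CPM in control and at 279.9, 269, 296 and 273 CPM with So(d18:1), with the groups well apart (log2 fold change 0.33, SE 0.044, adjusted p = 4.04e-05, edgeR).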

How the data were processed

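RNA with a poly(A) tail from 4 control and 4 So(d18:1) BMDM samples was sequenced on an Illumina platform. Per the labels, the authors used Trim Galore 0.6.7 for trimming, HISAT2 2.2.1 for alignment to mm10 and featureCounts 2.0.1 for counting on genes. The deposited values are raw counts per gene with a gene length, not normalized. The annotation, strand setting and treatment of reads with several matches were not given in the sources used here, so counts of genes with copies or overlaps are uncertain.

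Symbols and positions came from GENCODE M21 (GRCm38), which named 52081 of 55357 genes. Counts were filtered with filterByExpr (14514 genes), scaled by TMM and tested in R 4.3.3 with edgeR 4.0.16 (quasi-likelihood, robust dispersion, no covariate) with Benjamini-Hochberg adjustment. Standard errors (SE) were taken as the size of the log2 fold change over the square root of F. Log2 CPM used a prior count of 2. CPM for genes that were not tested used the same scaling. For shared sequence, all words of 50 bases in the transcripts of a gene were looked up in those of other genes. The fit was tested on simulated data, where 14 of 158 calls were false. It called 46.9% of the tested genes changed 1.25-fold, 65.9% of those changed 1.5-fold and 86% of those changed 2-fold. A small change of a member could therefore be missed. Alternatives were other scalings, filters and tests (limma 3.58.1, DESeq2 1.42.0), a replicate block and each library left out. Figures were drawn with matplotlib 3.10.9.

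The 36 members, the lists and the rule for naming genes were chosen with earlier results of these data known, so no p is given over a list. The rule gave full values to members with an adjusted p under 0.05 or past the study's threshold and to 9 genes of the NRF2 core, and at most 3 called genes per other list. Members named outside it were chosen after their values were seen. A result for 1 gene outside the members is not reported here.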

Additional observations from a re-analysis of the deposited data

Results flagged for a closer look

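In each group of 4 libraries, the library farthest from the other 3 was set against Dixon's 95% critical value on the log2 CPM scale. The ratio divides that library's distance from its closest neighbour by the group's whole range. Of 70 groups examined (35 members in control and in So(d18:1)), 7 were past it, where chance gives 3.5. In control, Nqo1 had a ratio of 0.863, with control replicate 1 at 0.62 against 1.22 to 1.31 in the others. Slc7a11 had 0.844, with control replicate 3 at 2.29 against 1.66 to 1.76. Gss had 0.975, with control replicate 2 at 3.52 against 3.71 to 3.72, and Tkt had 0.856, with control replicate 4 at 8.29 against 8.24 to 8.25. In So(d18:1), the library apart was replicate 4 in each of 3 members. Pgd had a ratio of 0.863 (10.04 against 9.93 to 9.94), Taldo1 had 0.894 (8.86 against 8.67 to 8.69) and Mgst1 had 0.836 (8.10 against 7.94 to 7.96). Pgd, Taldo1 and Mgst1 were not called, and of Nqo1, Slc7a11, Gss and Tkt only Nqo1 kept its call in all 8 fits with a library left out.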

How the results depend on the processing

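Among the alternatives, the number of called members stayed within 1.5 times of 10 under 9 settings that changed the scaling, filter, block or test, from 9 (upper quartile scaling, at least 10 counts in every library, limma-voom) to 14 (no filter on low counts), and the median log2 fold change lay between 0.082 and 0.10. Over all tested genes, 1230 (limma-voom) to 1784 (replicate block) of 14514 were called, beside 1298 in the main fit, and 1723 of 28076 with no filter. By the study's threshold 1 member and 2 other pathway genes passed, where 3.89% of all tested genes did. With limma-voom 0 members fell, since Glrx had an adjusted p of 0.0504 there, while by edgeR 1 member was lower at an unadjusted p under 0.05. With a library left out, 4 to 10 members were called, 4 to 9 rose and 0 to 1 fell. In these fits 10 to 16 other pathway genes were called and the median of the members was 0.060 to 0.12. Over all genes, 815 of 14848 (without So(d18:1) replicate 2) to 1370 of 14627 (without control replicate 2) were called. The log2 fold change of Abcc1 turned to 0.0036 with library size alone and to 0.00099 with no filter. With a library left out, the sign turned for Abcc1 (-0.022 to 0.028), Nfe2l2 (-0.037 to 0.021), Txnrd1 (-0.086 to 0.055), Prdx1 (-0.023 to 0.055), Prdx3 (-0.0071 to 0.062) and Me1 (-0.028 to 0.30), none of which was called in any of these fits. The cause of these changes was not tested. Replicate numbers are shared between groups, but same-numbered libraries did not deviate together. Their correlations were -0.0035, 0.10, 0.033 and 0.0091 over 14514 genes, and those of differently numbered libraries ran from -0.136 to 0.107. Same-numbered libraries were therefore taken to share only a number. With the replicate block 13 members were called (12 rose, 1 fell), and 20 other pathway genes were called, with a median of 0.094. Of all 14514 tested genes, 1784 were called with this block, beside 1298 without it. Depth limits Nqo1, Slc7a11 and Me1, with at most 156 counts per library, and Gsta4, which could not be tested.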
